A study of Homo sapiens with 6 samples.

Results

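The genes described here encode the subunits of the proteasome, its activators and inhibitor, and the factors that assemble it. The members were all genes of the deposited table whose symbol is PSM followed by a letter from A to G and a number, together with ADRM1. The rule found 49 of the 60643 genes in the table, and no symbol occurred more than once. Their RNA levels were compared in the established cell line HCT116, a human colorectal carcinoma line (the labels give the tissue as rectum and the cells as colon cancer), into which a hairpin RNA against CAPG had been introduced under doxycycline control. CAPG encodes a gelsolin-like protein that caps actin filaments. The +Dox group held 3 libraries of cells given doxycycline for 3 days at 100 ng/µl (the labels' own unit), and its genotype is labelled CAPG Knockdown. The -Dox group held 3 libraries of untreated cells, labelled WT, although their titles name the same hairpin construct. The sample descriptions name a single hairpin (shCAPG-2), and cells given doxycycline without this hairpin were not analysed here, so effects of the drug and of the hairpin cannot be told apart. Whether the replicates were separate cultures is not stated in the labels, and p-values therefore measure only the spread between libraries of a group, which may be technical.

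The proteasome is the large protease that degrades proteins tagged with ubiquitin. Its 20S core is a barrel of stacked rings in which alpha subunits form the gate and beta subunits carry the proteolytic sites, and its 19S cap binds ubiquitin chains, removes them and unfolds the substrate with a ring of ATPases. Dedicated chaperones build the rings, other activators can take the place of the 19S cap, and in mammalian cells the transcription factor NFE2L1 raises many proteasome genes together when proteasome activity is short.

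CAPG itself was at 8.18, 8.03 and 9.97 FPKM (fragment counts divided by the length of the transcript and the size of the library) in the +Dox libraries, against 61.1, 56.9 and 53.7 FPKM in the -Dox libraries, as the labels state (log2 change -2.59, limma adjusted p = 7.24e-06). All log2 changes are +Dox minus -Dox on log2(FPKM + 1), a scale that understates the change of low genes. Between 14257 and 14526 genes reached 1 FPKM per library, and the depth estimated from the smallest values was 17600000 to 17800000 fragments per +Dox library and 14300000 to 17700000 per -Dox library. Most epithelial markers were high, and the list summed to 1870 to 2200 FPKM in +Dox and 1660 to 1860 FPKM in -Dox libraries. Of these 7 markers VIL1 stayed under 1 FPKM in every library. CDX2 averaged only 5.42 FPKM in +Dox and 4.52 FPKM in -Dox libraries. It lay below the fibroblast marker COL1A1, which averaged 8.37 FPKM in +Dox and 9.06 FPKM in -Dox libraries. Of 5 fibroblast markers 4, of 4 leukocyte markers 3 and all 4 endothelial markers stayed under 1 FPKM, with COL1A2, DCN and CD3E listed at 0 in every library. The sums over these lists were 7.50 to 9.79 FPKM in +Dox and 7.90 to 11.2 FPKM in -Dox libraries (fibroblast), 1.64 to 2.31 FPKM in +Dox and 3.74 to 4.48 FPKM in -Dox libraries (leukocyte), and 0.177 to 0.573 FPKM in +Dox and 0.195 to 0.246 FPKM in -Dox libraries (endothelial). EPCAM, an epithelial adhesion gene, was at 224, 236 and 263 FPKM in +Dox libraries, against 181, 192 and 197 FPKM in -Dox libraries and rose (log2 change 0.34, limma adjusted p = 0.0401). The lysosomal gene CD68 fell to 2.26, 1.57 and 2.20 FPKM in +Dox libraries, against 3.78, 4.48 and 3.57 FPKM in -Dox libraries (log2 change -0.72, limma adjusted p = 0.0167). EPCAM kept its call without +Dox replicate 3 (0.0371) and lost it without +Dox replicates 1 and 2 (0.0532 and 0.102), without -Dox replicates 1, 2 and 3 (0.112, 0.139 and 0.0768), with genes from 0.1 FPKM tested (0.0634) and without the trended, robust options (0.0693). CD68 lost its call without +Dox replicate 2 (0.0535) and without -Dox replicate 2 (0.0762). With the replicate number as a block EPCAM and CD68 lost their calls (0.0802 and 0.0703). The part of these markers in the results was not tested. In bulk RNA such as this, fewer cells of a type and less RNA per cell cannot be told apart.

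One library stood apart, and proteasome genes moved with it. The FPKM values of +Dox replicate 3 summed to 586911, against 529231 and 534987 in the other +Dox libraries and 521832 to 536037 in the -Dox libraries. Over all 14475 tested genes its values lay a median of 0.04 (log2) above the mean of the other +Dox libraries, with 0.17 in the shortest and -0.08 in the longest of 4 equal classes by transcript length. The members lay 0.25 above, and 20 and 16 of the 46 tested members belonged to the shortest and the next class. The part of transcript length in the members' values was not tested, and main results are also given without this library.

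Most proteasome genes were slightly higher with doxycycline, and few of them passed the test one by one. Of the 49 members 46 were tested, that is, had at least 1 FPKM in at least 3 libraries. Of these 7 rose (PSMB6, PSMB7, PSMC2, PSMC3, PSMC4, PSMD10 and PSMD11) and 1 fell (PSMG4) by limma at a Benjamini-Hochberg adjusted p under 0.05. That is 15.2% called higher, where 3.69% of all tested genes were called higher, 4.77% lower and 8.46% in either direction. At an unadjusted p under 0.05, 29 members were higher and 1 lower, against 13.6% higher and 14.3% lower among all tested genes. The log2 change was positive in 43 of 46 members (93.5%), against 49.6% of all tested genes. With libraries scaled to equal totals 37 were positive, with PSMA1, PSMB10, PSME3, PSMF1, PSMG1 and PSMG2 changing sign, and after quantile normalization 39 were positive, with PSMA1, PSMB4, PSME3 and PSMG2 changing sign. The median change of the tested members was 0.25, against -0.0026 over all tested genes.

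The groups did not overlap in 30 members that were higher in every +Dox library (65.2%), where 17% of all tested genes had that order, and in 2 members that were lower in every +Dox library (17.5% of all tested genes). The summed FPKM of the 49 members was 4516, 4685 and 5433 in the +Dox libraries, against 4153, 4089 and 4037 in the -Dox libraries. As a share of all FPKM in a library the members made up 0.853, 0.876 and 0.926% with doxycycline, against 0.775, 0.771 and 0.774% without it. Every +Dox library lay above every -Dox library on both measures, and +Dox replicate 3 was the highest. Without that library the median change of the members was 0.17, and 38 of 46 were positive, against 48.9% of all tested genes. Both remaining +Dox libraries were above all -Dox libraries in 30 of 46 members, against 22.5% of all tested genes.

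How many members passed the test depended on single libraries and on settings, as did the calls over all genes. Without +Dox replicate 1, 3 members were called higher and 0 lower, against 1.84% and 2.39% of all tested genes. Without +Dox replicate 2 both counts were 0 (0.981% higher and 1.7% lower), and without +Dox replicate 3 they were 5 and 1 (2.85% and 4.06%). Without -Dox replicate 1 they were 1 and 0 (1.6% and 1.89%), without -Dox replicate 2 both were 0 (0.525% and 1.02%), and without -Dox replicate 3 they were 2 and 1 (1.6% and 3.05%). With genes from 0.1 FPKM upward tested as well, 4 members were called higher and 0 lower (1.44% and 2.12%), and without the trended, robust options of limma 3 and 1 (2.45% and 4.18%). With the replicate number as a block both counts were 0 (0.477% and 0.981%). The counts were 7 and 1 with a pseudocount of 0.1 (3.59% and 4.65%) and after quantile normalization (4.26% and 4.86%), and 8 and 1 with equal totals (3.16% and 6.15%) and with median ratios (4.48% and 5.12%). After each library's smooth trend on transcript length and GC content was removed, an alternative chosen after the data were seen, 21 members were called higher and 1 lower (9.81% and 7.78%), and the median was 0.23. As shares of the tested members, the counts called higher were above the share of all tested genes except where they were 0, which is below it. Without -Dox replicate 1 the count of 1 was PSMC4 and lay close to that share.

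**Figure D1:**
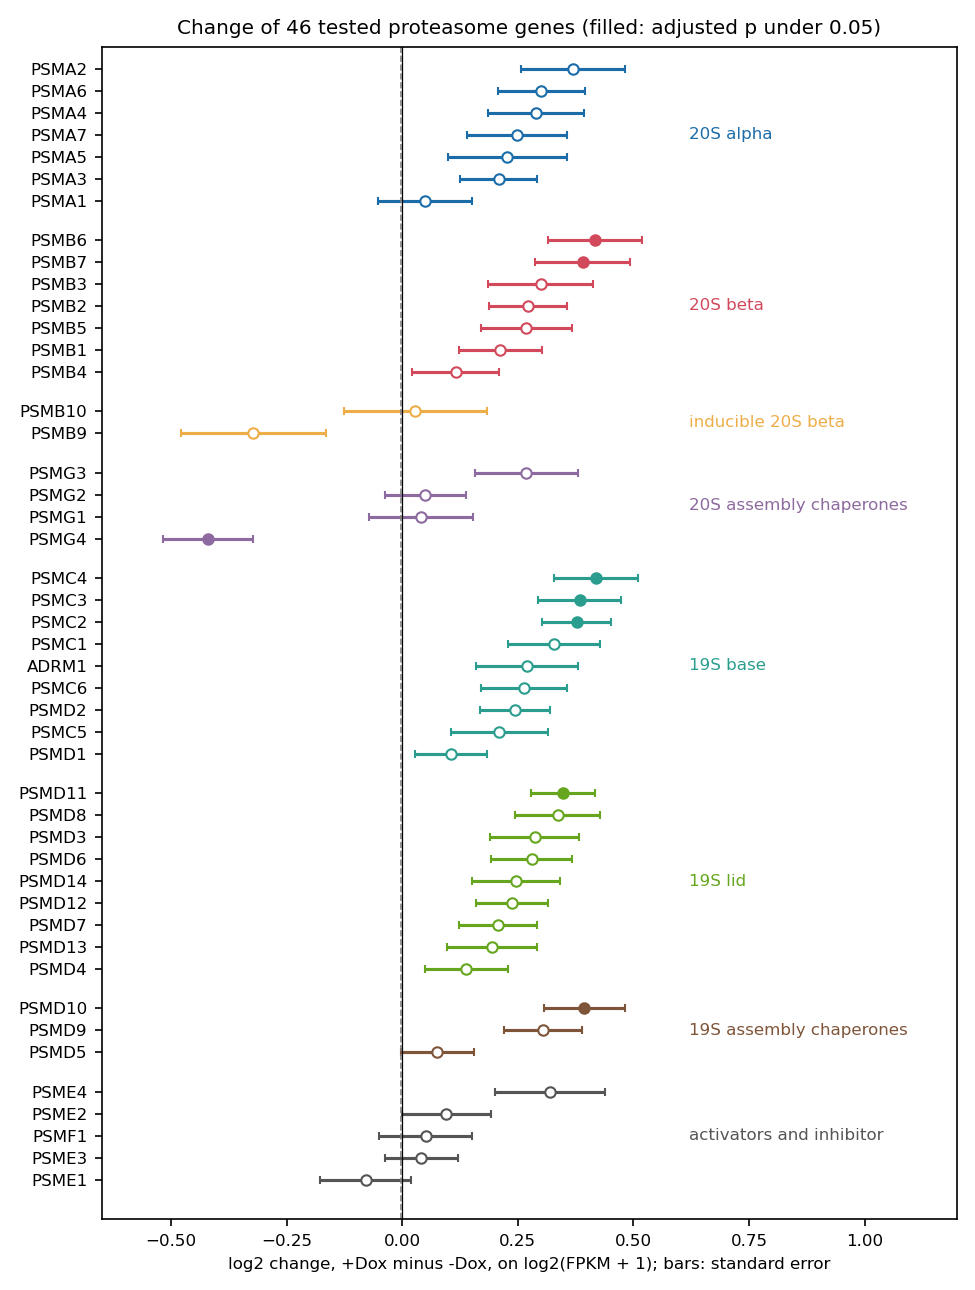
Log2 change (+Dox minus -Dox, on log2(FPKM + 1)) of the 46 tested proteasome genes, ordered by subcomplex, with bars for the standard error from limma, filled points for an adjusted p under 0.05, a solid line at 0 and a dashed line at the median of all tested genes. The subunits of the constitutive 20S core and the 19S cap all lie right of 0, while the filled point of PSMG4 lies left of it at -0.42. The open points of PSMB9 (-0.32) and PSME1 (-0.08) also lie left of 0.

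The members were then read by subcomplex. All 32 tested subunits of the constitutive 20S core and the 19S cap had positive changes, with a median of 0.27, and 6 of them were called higher. Among all tested genes 49.6% were positive, 3.69% were called higher and 4.77% lower. PSMA1 was negative with equal totals, without +Dox replicate 3 and without -Dox replicate 1, and after quantile normalization PSMA1 and PSMB4 were. The other 14 tested members had a median of 0.05, with 11 positive, 1 called higher and 1 called lower. A difference between these classes was not tested. Summed over their members, the 19S assembly chaperones stood at 124.2% of their -Dox mean, the 19S base at 122.2%, the 20S beta subunits at 121.3%, the 19S lid at 119.2% and the 20S alpha subunits at 119.1%. The sum of the 20S assembly chaperones was at 105.1%, that of the activators and inhibitor at 104.6% and that of the inducible beta subunits at 95.7%. Without +Dox replicate 3 the 19S assembly chaperones stood at 121.7%, the 19S base at 116.9%, the lid at 114.1%, the beta subunits at 112.6% and the alpha subunits at 111%. The 20S assembly chaperones then stood at 98.3%, the activators and inhibitor at 99.98% and the inducible beta subunits at 82.8%.

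**Figure D2:**
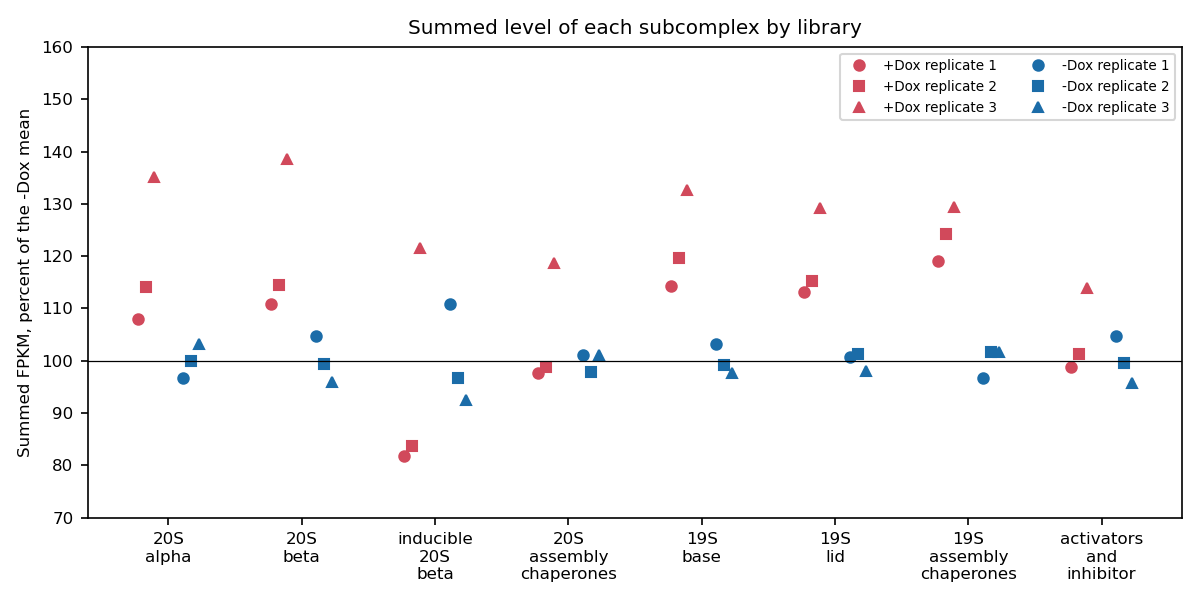
Summed FPKM of each subcomplex in each library as a percent of the -Dox mean, with +Dox libraries (red) left of -Dox libraries (blue) and a marker shape for each replicate. All +Dox libraries lie above all -Dox libraries for the 4 structural subcomplexes and the 19S assembly chaperones, and +Dox replicate 3 is the highest throughout.

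The alpha subunits form the outer rings of the 20S core and its gate. Of the 7 tested alpha genes none passed the test (0 by limma, against 3.69% higher and 4.77% lower among all tested genes). At an unadjusted p under 0.05, 5 were higher and 0 lower, against 13.6% and 14.3% of all tested genes. The adjusted p of the alpha genes lay between 0.0725 and 0.797. PSMA2 had the largest change, at 108, 109.6 and 140.2 FPKM in +Dox libraries, against 83.9, 92.3 and 98.7 FPKM in -Dox libraries (log2 change 0.37, SE 0.11, limma adjusted p = 0.0725). PSMA6 was at 129.5, 133 and 159 FPKM in +Dox and 108, 118 and 114 FPKM in -Dox libraries (log2 change 0.30, limma adjusted p = 0.0765). In both genes every +Dox library was above every -Dox library (as in 17% of all tested genes), and +Dox replicate 3 was well above the other libraries. Without that library the changes of PSMA2 and PSMA6 were 0.25 and 0.21. A processed pseudogene of PSMA6 also held a value, and reads may be split between them.

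PSMA4 was the most abundant member of all, at 329 ± 43.2 FPKM in +Dox and 268 ± 17.1 FPKM in -Dox libraries (SD, n = 3 each). PSMA5 was the lowest of the tested alpha genes, at 57.6 ± 7.74 FPKM in +Dox and 49.2 ± 7.86 FPKM in -Dox libraries. FPKM is per transcript length, so levels can be set side by side, and they spanned 5.59-fold across the alpha subunits although these are present in equal numbers in the particle. PSMA7 averaged 231 ± 28.3 FPKM in +Dox and 194 ± 20 FPKM in -Dox libraries, and its groups overlapped. PSMA3 averaged 153 ± 12.6 FPKM in +Dox and 132 ± 5.7 FPKM in -Dox libraries without overlap, with the antisense gene PSMA3-AS1 at its locus at 16.1 FPKM in +Dox and 18.4 FPKM in -Dox libraries. PSMA1 moved least, at 135 ± 15 FPKM in +Dox and 130 ± 11.7 FPKM in -Dox libraries. PSMA8, the testis form of an alpha subunit, was listed at 0 in all 6 libraries.

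The beta subunits form the inner rings. PSMB6 and PSMB7, which carry the caspase-like and the trypsin-like site, rose, and the third catalytic gene, PSMB5, with the chymotrypsin-like site, did not pass the test. PSMB6 (ENSG00000142507, chromosome 17, 4796144 to 4798502, GRCh38) was at 162, 159 and 197 FPKM in +Dox libraries, against 139, 127 and 119 FPKM in -Dox libraries. All +Dox libraries were higher (log2 change 0.42, SE 0.10, limma adjusted p = 0.0385). PSMB7 (ENSG00000136930, chromosome 9, 124353465 to 124415444) was at 168, 171 and 207 FPKM in +Dox libraries, against 146, 143 and 126 FPKM in -Dox libraries (log2 change 0.39, SE 0.10, limma adjusted p = 0.0479). PSMB5 was at 185, 184 and 228 FPKM in +Dox libraries, against 172, 162 and 158 FPKM in -Dox libraries (log2 change 0.27, limma adjusted p = 0.111), and its change was 0.17 without +Dox replicate 3. Its groups did not overlap either, and a difference in response between the 3 catalytic genes was not tested. PSMB7 lost its call when any library was left out, with adjusted p of 0.0608, 0.0833 and 0.0613 without +Dox replicates 1, 2 and 3 and 0.0839, 0.125 and 0.128 without -Dox replicates 1, 2 and 3. PSMB6 kept it only without +Dox replicate 3 (0.0469), with 0.058 and 0.0636 without +Dox replicates 1 and 2 and 0.0627, 0.129 and 0.108 without -Dox replicates 1, 2 and 3. With genes from 0.1 FPKM upward tested as well, the adjusted p was 0.0671 for PSMB6 and 0.0792 for PSMB7, and without the trended, robust options it was 0.0674 and 0.0789.

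The noncatalytic beta genes were spread around the same median. PSMB3 was the most abundant after PSMA4, at 277 ± 45.3 FPKM in +Dox and 223 ± 12.3 FPKM in -Dox libraries (SD, n = 3 each), and PSMB2 the lowest of the constitutive beta genes, at 71.7 ± 6.36 FPKM in +Dox and 59.2 ± 1.78 FPKM in -Dox libraries. PSMB1 averaged 224 ± 25 FPKM in +Dox and 192 ± 3.42 FPKM in -Dox libraries. In these 3 genes every +Dox library was above every -Dox library, as in 17% of all tested genes. PSMB4 was at 236 ± 26.3 FPKM in +Dox and 217 ± 9.95 FPKM in -Dox libraries, and its groups overlapped. Their limma adjusted p-values lay between 0.0766 (PSMB2) and 0.461 (PSMB4).

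The inducible beta genes, which replace the constitutive catalytic subunits in the immunoproteasome of immune cells and of cells exposed to interferon gamma, were low in both groups. PSMB8, the counterpart of PSMB5, was at 0.443, 0.0846 and 0.290 FPKM in +Dox libraries, against 0.240, 0.888 and 0.447 FPKM in -Dox libraries. It did not reach the filter, and 3 fragments in a transcript of its length correspond to 0.128 to 0.160 FPKM, so that 5 of the 6 values lay above that limit, which covers counting error only. PSMB9, the counterpart of PSMB6, was at 0.901, 0.523 and 1.07 FPKM in +Dox libraries, against 1.51, 1.09 and 1.25 FPKM in -Dox libraries. Every +Dox library was lower, but the change did not pass the test (log2 change -0.32, SE 0.16, limma adjusted p = 0.213). PSMB9 was the only tested member near the filter limit, and its locus overlaps TAP1 on the opposite strand, at a mean of 15.1 FPKM. PSMB10, the counterpart of PSMB7, was at 6.46, 7.42 and 10.3 FPKM in +Dox libraries, against 8.87, 7.28 and 7.18 FPKM in -Dox libraries, and the groups overlapped. Its log2 change of 0.03 turned to -0.14 without +Dox replicate 3. PSMB11, the thymus form, had a value above 0 in 1 +Dox library (0.029 FPKM), under the level of 3 fragments.

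Set against its constitutive counterpart within each library, every inducible gene had a lower mean share with doxycycline. PSMB9 stood at 0.557, 0.330 and 0.546% of PSMB6 in +Dox libraries, against 1.08, 0.852 and 1.05% in -Dox libraries. PSMB10 stood at 3.84, 4.35 and 4.96% of PSMB7 in +Dox libraries, against 6.06, 5.09 and 5.71% in -Dox libraries. In both pairs every +Dox library was lower, and the exact permutation p (two-sided) was 0.1, the smallest that 3 against 3 libraries allow, or 0.15 adjusted over the 3 pairs. PSMB8 stood at 0.239, 0.0460 and 0.127% of PSMB5 in +Dox libraries, against 0.139, 0.547 and 0.282% in -Dox libraries, with overlapping groups (exact permutation p = 0.2, two-sided, and 0.2 adjusted over the 3 pairs). These ratios do not change when all values of a library are multiplied by the same factor. Quantile normalization can change them and was not applied to them. The ratios fall where the constitutive gene rises as well as where the inducible gene falls.

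**Figure D3:**
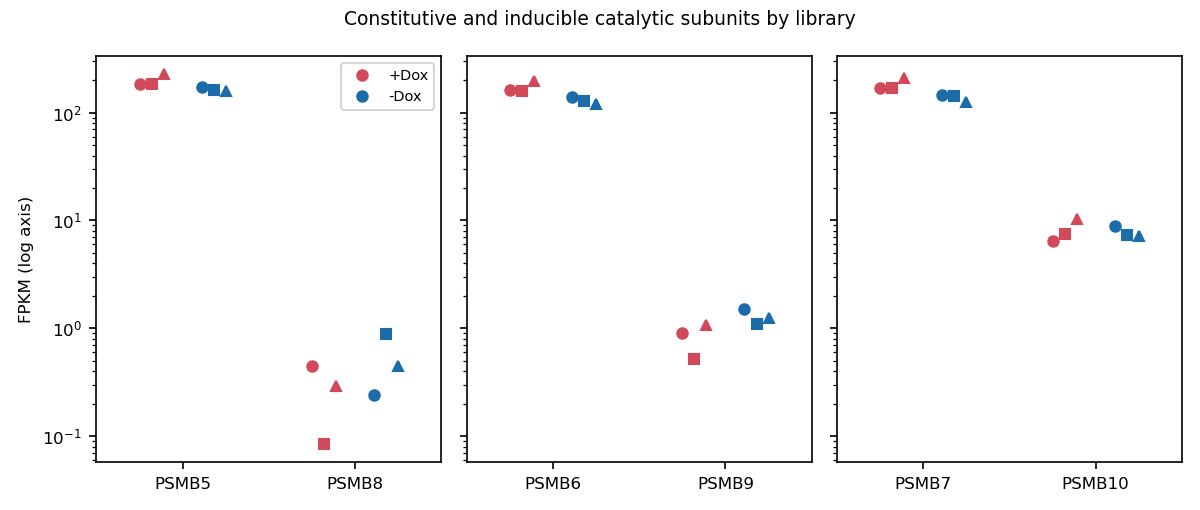
FPKM on a log axis of the constitutive catalytic genes PSMB5, PSMB6 and PSMB7 and of their inducible counterparts PSMB8, PSMB9 and PSMB10 in each library, +Dox (red) left of -Dox (blue), with circle, square and triangle for replicates 1, 2 and 3. The constitutive genes lie between 119 and 228 FPKM and the inducible genes between 0.0846 and 10.3 FPKM.

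The base of the 19S cap holds the ATPase ring (PSMC1 to PSMC6), the scaffold subunits PSMD1 and PSMD2 and the ubiquitin receptor ADRM1. By limma 3 of the 9 genes rose, all of them ATPases, and 0 fell, against 3.69% and 4.77% of all tested genes. At an unadjusted p under 0.05, 7 were higher and none lower (0), against 13.6% and 14.3% of all tested genes. PSMC2 (ENSG00000161057, chromosome 7, 103344254 to 103369395, GRCh38) was at 54.2, 54.7 and 59 FPKM in +Dox libraries, against 42.7, 42 and 43.9 FPKM in -Dox libraries. The groups lay further apart than the spread within either (log2 change 0.38, SE 0.07, limma adjusted p = 0.0208), and the gene had the smallest adjusted p of all members. PSMC4 (ENSG00000013275, chromosome 19, 39971165 to 39981764) was at 82.1, 89.5 and 98.3 FPKM in +Dox libraries, against 71.9, 65.2 and 63.6 FPKM in -Dox libraries (log2 change 0.42, SE 0.09, limma adjusted p = 0.0259), the largest increase of any member. PSMC3 (ENSG00000165916, chromosome 11, 47418769 to 47426473) was at 152, 177.5 and 183 FPKM in +Dox libraries, against 137, 125 and 129.8 FPKM in -Dox libraries (log2 change 0.38, SE 0.09, limma adjusted p = 0.0328). In all 3 genes every +Dox library was above every -Dox library, as in 17% of all tested genes. The locus of PSMC2 overlaps DNAJC2 on the opposite strand, at a mean of 27.9 FPKM.

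The calls of these ATPase genes depended on single libraries. PSMC2 lost its call without +Dox replicate 2 (limma adjusted p = 0.0636) and without -Dox replicates 1 and 2 (0.056 and 0.103). PSMC4 lost it without +Dox replicate 2 (0.0755) and without -Dox replicates 2 and 3 (0.108 and 0.073). PSMC3 lost it without +Dox replicates 2 and 3 (0.108 and 0.0507) and without -Dox replicates 1, 2 and 3 (0.0666, 0.141 and 0.0822). PSMC3 also lost it with genes from 0.1 FPKM tested (0.0561) and without the trended, robust options (0.0595).

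PSMC1, PSMC5 and PSMC6 did not pass the test. PSMC1 was at 48.2, 53.3 and 62.6 FPKM in +Dox libraries, against 42.4, 43.4 and 43.6 FPKM in -Dox libraries (log2 change 0.33, limma adjusted p = 0.0715). Its processed pseudogenes PSMC1P1 and PSMC1P5 were listed at means of 133 and 34.5 FPKM in +Dox and 106 and 35.1 FPKM in -Dox libraries, so reads of this sequence may be split between the copies and the level of PSMC1 is uncertain. Summed over the 3 genes the value was 186, 221 and 261 FPKM in +Dox libraries, against 176, 199 and 178 FPKM in -Dox libraries, and these groups overlapped. PSMC1P5, a transcript of 177 bases, varied widely. It was at 15.1, 38.8 and 49.4 FPKM in +Dox and 30, 50.6 and 24.8 FPKM in -Dox libraries. PSMC1P1 was at 123, 128 and 149 FPKM in +Dox and 103, 105 and 109 FPKM in -Dox libraries, without overlap. Its log2 change was 0.33 (limma adjusted p = 0.0519). A sum of FPKM over transcripts of unlike length does not restore split reads. PSMC5 averaged 165 ± 24.8 FPKM in +Dox and 142 ± 4.62 FPKM in -Dox libraries, and PSMC6 51.7 ± 2.95 FPKM in +Dox and 43 ± 4.19 FPKM in -Dox libraries (SD, n = 3 each). Among the scaffold subunits PSMD2 was at 199 ± 4.28 FPKM in +Dox and 168 ± 9.85 FPKM in -Dox libraries (limma adjusted p = 0.0761), and PSMD1 at 69.8 ± 2.73 FPKM in +Dox and 64.8 ± 3.6 FPKM in -Dox libraries with overlap. ADRM1 averaged 85.1 ± 9.77 FPKM in +Dox and 70.4 ± 8.16 FPKM in -Dox libraries, also with overlap.

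The lid of the 19S cap holds PSMD14, the deubiquitinase that cuts ubiquitin chains off the substrate, and its scaffold. The ubiquitin receptor gene PSMD4, at the junction of lid and base, is counted with it. Of the 9 genes PSMD11, which clamps the lid to the 20S core, rose by limma and 0 fell (3.69% and 4.77% of all tested genes). The unadjusted p was under 0.05 in 7 genes that were higher and in 0 that were lower (13.6% and 14.3% of all tested genes). PSMD11 (ENSG00000108671, chromosome 17, 32444379 to 32483319, GRCh38) was at 89.9, 92.1 and 91.8 FPKM in +Dox libraries, against 70.4, 72.7 and 71.5 FPKM in -Dox libraries (log2 change 0.35, SE 0.07, limma adjusted p = 0.0208). It was the most even of the members that rose, since +Dox replicate 3 did not stand out, and its change without that library was 0.34. Its call was lost without +Dox replicates 1 and 2 (0.0554 and 0.0791) and without -Dox replicates 1 and 2 (0.0593 and 0.0955). PSMD8 was at 144, 144 and 162 FPKM in +Dox libraries, against 130.2, 117 and 108 FPKM in -Dox libraries (log2 change 0.34, SE 0.09, limma adjusted p = 0.0539). It passed the test with libraries scaled to equal totals (0.0385) or by median ratios (0.0366).

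PSMD12 was at 95.6, 98.3 and 97.1 FPKM in +Dox libraries, against 75.8, 85.2 and 85.6 FPKM in -Dox libraries, but did not pass the test (log2 change 0.24, limma adjusted p = 0.0871). PSMD14 averaged 106 ± 10.4 FPKM in +Dox and 89 ± 6.79 FPKM in -Dox libraries, and its inactive partner gene PSMD7 109 ± 9.86 FPKM in +Dox and 94.2 ± 2.34 FPKM in -Dox libraries (SD, n = 3 each). PSMD3 averaged 87.3 ± 7.03 FPKM in +Dox and 71.5 ± 6.99 FPKM in -Dox libraries, PSMD6 67.5 ± 6.18 FPKM in +Dox and 55.3 ± 2.61 FPKM in -Dox libraries, and PSMD13 103 ± 13.2 FPKM in +Dox and 89.7 ± 2.89 FPKM in -Dox libraries. In 8 of the 9 lid genes every +Dox library was above every -Dox library, an order that 17% of all tested genes had. The exception was PSMD4, at 127.5 ± 11.8 FPKM in +Dox and 116 ± 6.73 FPKM in -Dox libraries. Levels within the lid spanned 2.19-fold, a narrower range than within the alpha subunits.

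**Figure D4:**
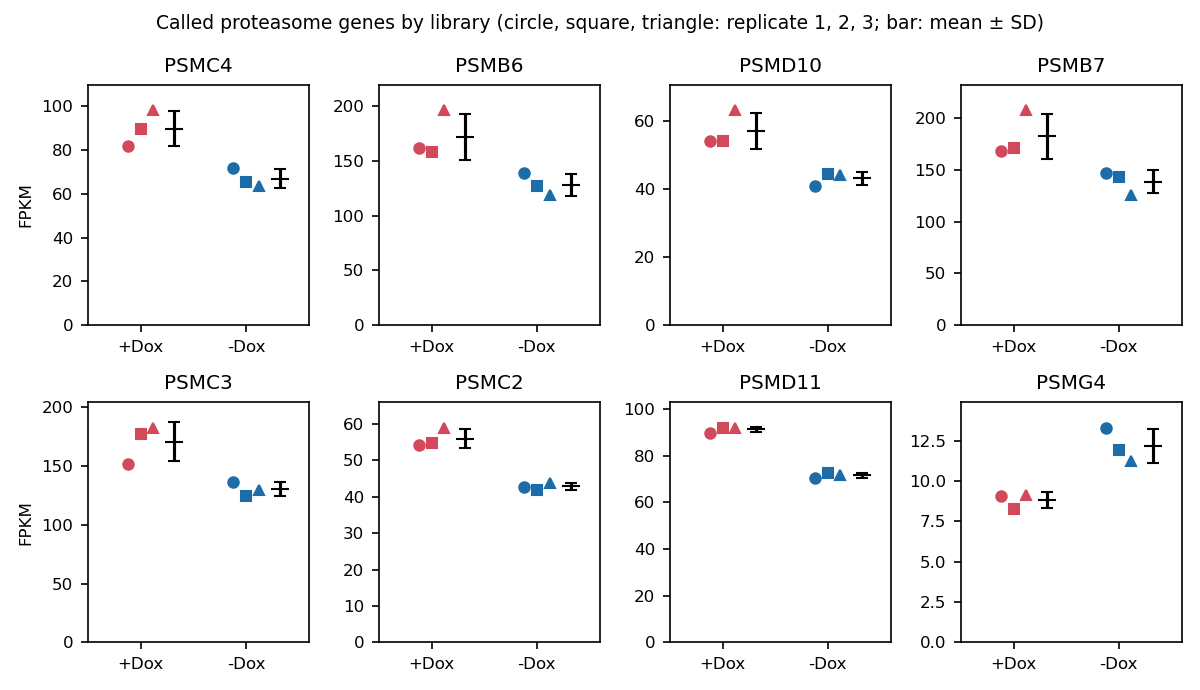
FPKM in each library of the 8 proteasome genes with an adjusted p under 0.05, +Dox (red) left of -Dox (blue), with circle, square and triangle for replicates 1, 2 and 3 and a black bar for the mean ± SD. In the 7 genes that rose all +Dox libraries lie above all -Dox libraries, and in PSMG4 all lie below.

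The assembly chaperones did not move as 1 group. PSMD5, PSMD9 and PSMD10 (gankyrin) each bind an ATPase during assembly of the 19S base, and of these PSMD10 rose. PSMD10 (ENSG00000101843, chromosome X, 108084207 to 108091549, GRCh38) was at 54, 54.1 and 63.1 FPKM in +Dox libraries, against 40.9, 44.4 and 44 FPKM in -Dox libraries (log2 change 0.39, SE 0.09, limma adjusted p = 0.0287). Its call held without +Dox replicate 3 (0.0383), and was lost without +Dox replicates 1 and 2 (0.0513 and 0.0636), without -Dox replicates 1, 2 and 3 (0.0809, 0.0973 and 0.0594) and without the trended, robust options (0.0508). PSMD9 was at 33.9, 39.5 and 34.6 FPKM in +Dox libraries, against 28.9, 28.7 and 29.1 FPKM in -Dox libraries. All +Dox libraries were higher, with replicate 2 the highest, and the change did not pass the test (log2 change 0.30, limma adjusted p = 0.0561). PSMD5 averaged 20.5 ± 0.518 FPKM in +Dox and 19.4 ± 0.719 FPKM in -Dox libraries (SD, n = 3 each).

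PSMG1 to PSMG4 assemble the 20S core, PSMG1 with PSMG2 and PSMG3 with PSMG4 as pairs that build the alpha ring, and PSMG4 was the only member called lower. PSMG4 (ENSG00000180822, chromosome 6, 3231403 to 3303373, GRCh38) was at 9.08, 8.24 and 9.13 FPKM in +Dox libraries, against 13.3, 11.9 and 11.2 FPKM in -Dox libraries (log2 change -0.42, SE 0.10, limma adjusted p = 0.0317). All +Dox libraries were lower, +Dox replicate 3 among them. Its partner PSMG3 was at 35.4, 36.3 and 44.2 FPKM in +Dox libraries, against 34.9, 32.3 and 28.4 FPKM in -Dox libraries (log2 change 0.27, limma adjusted p = 0.150), with a change of 0.17 without +Dox replicate 3. PSMG1 averaged 38.1 ± 6.05 FPKM in +Dox and 36.8 ± 2.31 FPKM in -Dox libraries and PSMG2 47.3 ± 3.99 FPKM in +Dox and 45.6 ± 2.61 FPKM in -Dox libraries (SD, n = 3 each), both with overlap. The locus of PSMG4 overlaps SLC22A23 and TUBB2B on the opposite strand, at means of 5.98 and 7.57 FPKM. The strandedness of the libraries was not given in the sources used, so reads of overlapping genes may not have been told apart. The call of PSMG4 was lost without +Dox replicates 1 and 2 (0.0701 and 0.108), without -Dox replicates 1 and 2 (0.0827 and 0.109) and with genes from 0.1 FPKM tested (0.0518).

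The activators PSME1 and PSME2 form a ring that caps the 20S core and is induced by interferon gamma, PSME3 forms a nuclear ring, PSME4 is a large nuclear activator, and PSMF1 encodes an inhibitor of the core in vitro. None of the 5 genes passed the test (0 called by limma, against 3.69% higher and 4.77% lower among all tested genes). At an unadjusted p under 0.05, 1 was higher and 0 lower, against 13.6% and 14.3% of all tested genes. PSME4 was at 25.7, 26.6 and 35.2 FPKM in +Dox libraries, against 22.6, 22.2 and 24.1 FPKM in -Dox libraries (log2 change 0.32, SE 0.12, limma adjusted p = 0.118). Its groups did not overlap, and +Dox replicate 3 lay well above the rest, with a change of 0.18 without it. PSME2 was at 36.9, 37.7 and 45.9 FPKM in +Dox libraries, against 38.2, 37.8 and 36.1 FPKM in -Dox libraries, with a log2 change of 0.09 over all libraries and -0.0028 without +Dox replicate 3. PSME1 averaged 46.9 ± 6.25 FPKM in +Dox and 49.3 ± 1.01 FPKM in -Dox libraries, PSME3 49.6 ± 2.15 FPKM in +Dox and 48.2 ± 2.45 FPKM in -Dox libraries, and PSMF1 49.2 ± 2.16 FPKM in +Dox and 47.7 ± 6.32 FPKM in -Dox libraries (SD, n = 3 each). The processed pseudogene PSME2P2 was listed at 10 FPKM in +Dox and 9.59 FPKM in -Dox libraries.

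**Figure D5:**
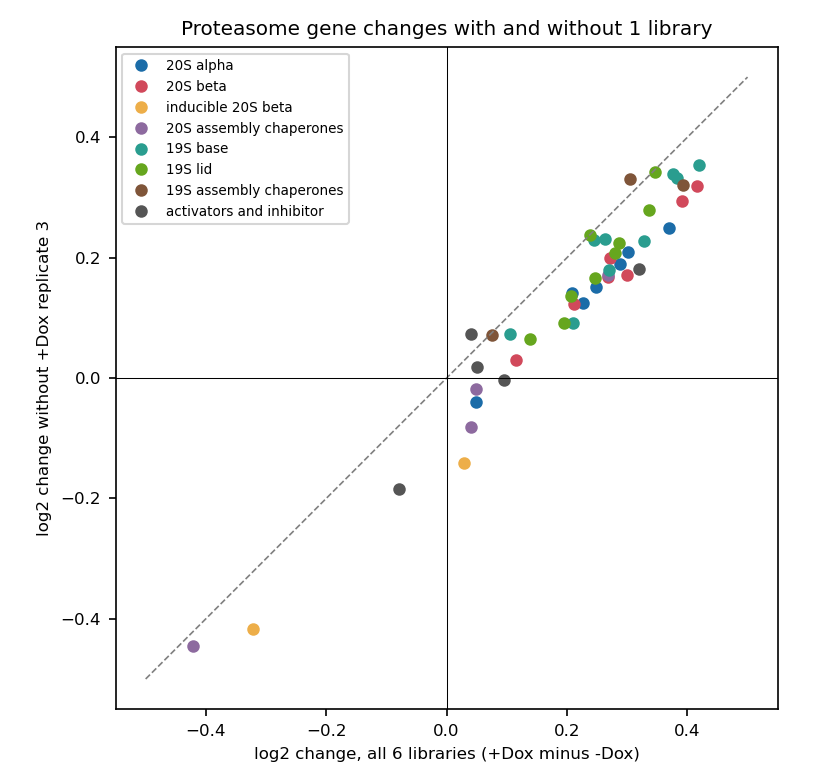
Log2 change of each tested proteasome gene over all 6 libraries (x axis) and without +Dox replicate 3 (y axis), coloured by subcomplex, with a dashed line where both are equal. Most points lie below the dashed line, and 38 of 46 stay above 0 on the y axis, with PSMD11 and PSMD12 close to the line.

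Transcript length was set beside the change, because +Dox replicate 3 differed from the other libraries by length. Tested members had mean annotated transcript lengths of 581 to 2682 bases. In the class of shortest transcripts (up to 1048 bases) the median log2 change was 0.25 over the 20 members and 0.04 over all 3603 genes. In the next class it was 0.22 over 16 members and 0.02 over all genes, and in the third (1484 to 2174 bases) 0.28 over 8 members and -0.02 over all genes. PSMB2 and PSME4, the 2 members in the longest class, had a median of 0.30, against -0.05 over all 3602 genes. The members lay above all genes of their length class in each of the 4 classes, which is a description with no test.

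Promoters of the members were searched for motifs known from proteasome genes. The element of NFE2L1 and NFE2L2 was searched as TGACNNNGC and the box of the factor NF-Y as CCAAT, each on both strands. The window ran from 250 bases before to 50 after the start site in RefSeq (GRCh38.p14). The promoter set used held 43 of the 49 members. It lacked PSMA7, PSMB1, PSMD4 and PSMG3, and also PSMB6 and PSMB7, which were called higher. TGACNNNGC was in 14 member promoters (32.6%), against 13.6% of all 27305 promoters and 15.3% of 9947 promoters of tested genes. CCAAT was in 20 member promoters (46.5%), against 35.7% of all and 36.9% of those of tested genes. The motifs overlapped each other in 40 of all promoters and in 0 of the members', too rare an event for that count to be read. Of the 5 members called higher with a listed promoter, PSMC2, PSMC3 and PSMD10 held CCAAT, PSMC4 held TGACNNNGC downstream of its start site, and PSMD11 held neither. Among the 34 tested members with a listed promoter that were not called, 16 held CCAAT and 13 held TGACNNNGC. TGACNNNGC was in 0 of 7 alpha subunit promoters and in 3 of 5 activator and inhibitor promoters (PSME1, PSME2 and PSME4). A match is a description of the sequence only.

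The 180 bases before the start site are shown for 4 of the members called higher (PSMC2, PSMC3, PSMD10 and PSMD11), for PSMG4 as the only member called lower, and for PSMB3 and PSMD9, which hold TGACNNNGC upstream, with motif matches in capitals (a match on the opposite strand appears as its reverse complement) and the sequence read 5′ to 3′ on the gene's strand. They lie at chr7:103347463-103347642, plus strand (PSMC2), chr11:47426440-47426619, minus strand (PSMC3), chrX:108091543-108091722, minus strand (PSMD10), chr17:32444330-32444509, plus strand (PSMD11), chr6:3258767-3258946, plus strand (PSMG4), chr17:38752561-38752740, plus strand (PSMB3) and chr12:121888610-121888789, plus strand (PSMD9).
PSMC2: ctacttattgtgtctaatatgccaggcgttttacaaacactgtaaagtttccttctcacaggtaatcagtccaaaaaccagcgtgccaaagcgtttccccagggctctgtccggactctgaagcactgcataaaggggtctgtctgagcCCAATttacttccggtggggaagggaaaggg
PSMC3: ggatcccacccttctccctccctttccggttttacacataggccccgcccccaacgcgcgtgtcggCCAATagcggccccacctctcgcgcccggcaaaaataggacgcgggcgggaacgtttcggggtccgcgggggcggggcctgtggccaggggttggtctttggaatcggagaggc
PSMD10: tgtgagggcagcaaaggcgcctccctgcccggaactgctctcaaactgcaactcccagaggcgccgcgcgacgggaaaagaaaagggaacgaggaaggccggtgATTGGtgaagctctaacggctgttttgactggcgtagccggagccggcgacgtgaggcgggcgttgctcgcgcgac
PSMD11: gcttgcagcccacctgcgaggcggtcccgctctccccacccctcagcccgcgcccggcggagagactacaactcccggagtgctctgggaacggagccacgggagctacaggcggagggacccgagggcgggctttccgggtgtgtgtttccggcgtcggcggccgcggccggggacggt
PSMG4: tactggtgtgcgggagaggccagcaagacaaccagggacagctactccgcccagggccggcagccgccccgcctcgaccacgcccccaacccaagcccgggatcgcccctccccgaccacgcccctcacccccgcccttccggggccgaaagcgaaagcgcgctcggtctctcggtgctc
PSMB3: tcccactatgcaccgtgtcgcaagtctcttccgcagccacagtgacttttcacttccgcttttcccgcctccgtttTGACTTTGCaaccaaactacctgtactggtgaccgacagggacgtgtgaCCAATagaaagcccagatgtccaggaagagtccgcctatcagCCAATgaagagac
PSMD9: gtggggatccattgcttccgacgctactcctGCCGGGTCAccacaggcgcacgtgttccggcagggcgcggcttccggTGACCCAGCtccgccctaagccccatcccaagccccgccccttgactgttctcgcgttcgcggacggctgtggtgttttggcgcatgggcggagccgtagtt
PSMB3 holds both motifs and PSMD9 holds TGACNNNGC on each strand, while PSMD11 and PSMG4, which were called in opposite directions, hold neither in this window.

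Further genes of the pathway were taken from lists of partners, transcriptional regulators, ubiquitin carriers and antigen processing genes. Among 13 proteasome partners with other names limma called 2 higher and 1 lower, against 3.69% and 4.77% of all tested genes, and the median log2 change was 0.10 (-0.0026 over all tested genes). ZFAND2A, an arsenite-inducible protein that binds the 19S cap, was at 9.29, 10.5 and 10.6 FPKM in +Dox libraries, against 7.61, 5.94 and 5 FPKM in -Dox libraries (log2 change 0.65, limma adjusted p = 0.024). TXNL1, a thioredoxin-like protein of the 19S cap, was at 51.6, 49 and 59.9 FPKM in +Dox libraries, against 38.1, 40.1 and 44.8 FPKM in -Dox libraries (log2 change 0.37, limma adjusted p = 0.0494). PAAF1, a further assembly chaperone of the 19S base, fell to 2.88, 3.05 and 3.28 FPKM in +Dox libraries, against 6.61, 5.12 and 4.18 FPKM in -Dox libraries (log2 change -0.61, limma adjusted p = 0.0328). The -Dox libraries of PAAF1 were themselves spread widely, and all +Dox libraries lay below them. POMP, the maturation factor of the 20S core, averaged 90.4 ± 12.8 FPKM in +Dox and 73.1 ± 2.21 FPKM in -Dox libraries (SD, n = 3 each, limma adjusted p = 0.099), and the small 19S subunit gene SEM1 135 ± 10.6 FPKM in +Dox and 122 ± 8.73 FPKM in -Dox libraries. The TXNL1 call was also lost under a pseudocount of 0.1, equal totals and quantile normalization (0.0503, 0.052 and 0.0556), with genes from 0.1 FPKM tested (0.0808), without the trended, robust options (0.0783), and without any library in turn, with adjusted p of 0.0875, 0.0708 and 0.0831 without +Dox replicates 1, 2 and 3 and 0.125, 0.161 and 0.0552 without -Dox replicates 1, 2 and 3. ZFAND2A lost its call without +Dox replicates 2 and 3 (0.0671 and 0.0618) and -Dox replicates 2 and 3 (0.0901 and 0.056). PAAF1 lost its call with genes from 0.1 FPKM tested (0.0587). Among the fits that left out a library it kept the call only without -Dox replicate 3 (0.0282), with 0.0781, 0.0811 and 0.0606 without +Dox replicates 1, 2 and 3 and 0.078 and 0.101 without -Dox replicates 1 and 2. With the replicate number as a block TXNL1, ZFAND2A and PAAF1 lost their calls (0.0729, 0.0766 and 0.0858).

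Of 11 regulators of proteasome gene transcription NFE2L2 alone rose, at 55.5, 60.1 and 63 FPKM in +Dox libraries, against 45.9, 47.8 and 46.4 FPKM in -Dox libraries (log2 change 0.34, limma adjusted p = 0.0308). Limma called 0 lower, and the shares over all tested genes were 3.69% higher and 4.77% lower. The counts at an unadjusted p under 0.05 were 2 higher and 0 lower, against 13.6% and 14.3%, and the median was 0.08. NFE2L1 was at 78.6, 68.6 and 63.6 FPKM in +Dox libraries, against 65.8, 68.4 and 55.4 FPKM in -Dox libraries, and its groups overlapped (log2 change 0.15, limma adjusted p = 0.396). DDI2, the protease that activates NFE2L1, averaged 6.6 ± 1.01 FPKM in +Dox and 8.02 ± 0.225 FPKM in -Dox libraries, and NGLY1, the glycanase that acts with it, 17.8 ± 0.823 FPKM in +Dox and 19.1 ± 1.8 FPKM in -Dox libraries (SD, n = 3 each). NFE2L2 lost its call without +Dox replicate 2 (0.101), without -Dox replicates 1, 2 and 3 (0.0784, 0.109 and 0.0704) and without the trended, robust options (0.0545). It was also lost with the replicate number as a block (0.0821). RNA levels do not report the cleavage and nuclear entry by which NFE2L1 is controlled.

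Among 18 genes of ubiquitin supply and delivery limma called 2 higher and 1 lower, against 3.69% and 4.77% of all tested genes. The counts at an unadjusted p under 0.05 were 7 and 1, against 13.6% and 14.3% of all tested genes, and the median log2 change was 0.13. The genes that rose encode partners of the segregase VCP, NSFL1C at 39.9, 43 and 45.7 FPKM in +Dox libraries, against 35.3, 33.5 and 29.1 FPKM in -Dox libraries (log2 change 0.38, limma adjusted p = 0.0402), and UFD1 at 96.5, 103 and 112 FPKM in +Dox libraries, against 89.2, 73.8 and 80.4 FPKM in -Dox libraries (log2 change 0.35, limma adjusted p = 0.049). UBQLN2, a ubiquitin shuttle, fell to 6.04, 6.32 and 6.77 FPKM in +Dox libraries, against 8.99, 8.47 and 9.43 FPKM in -Dox libraries (log2 change -0.43, limma adjusted p = 0.0263). All 3 had groups without overlap. VCP averaged 93.7 ± 5.75 FPKM in +Dox and 77.2 ± 3.38 FPKM in -Dox libraries and the ubiquitin gene UBB 1122 ± 100.1 FPKM in +Dox and 911 ± 58.6 FPKM in -Dox libraries (SD, n = 3 each, limma adjusted p = 0.0615 and 0.0686). NSFL1C and UFD1 lost their calls when any library was left out: the adjusted p of NSFL1C was 0.058, 0.107 and 0.0789 without +Dox replicates 1, 2 and 3 and 0.0582, 0.116 and 0.0924 without -Dox replicates 1, 2 and 3, and that of UFD1 was 0.0635, 0.116 and 0.083, and 0.0571, 0.194 and 0.106, in the same order. With genes from 0.1 FPKM tested NSFL1C had 0.0678 and UFD1 0.0788, without the trended, robust options NSFL1C had 0.0658 and UFD1 0.08, and after quantile normalization UFD1 had 0.0592. Among the fits that left out a library UBQLN2 kept its call only without +Dox replicate 3 (0.0323), with 0.0803 and 0.0833 without +Dox replicates 1 and 2 and 0.0642, 0.089 and 0.0656 without -Dox replicates 1, 2 and 3. With the replicate number as a block NSFL1C, UFD1 and UBQLN2 lost their calls (0.11, 0.111 and 0.0766).

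Of 8 genes of class I antigen processing, the pathway that the inducible subunits serve, limma called 0 higher and 1 lower, against 3.69% and 4.77% of all tested genes. The counts at an unadjusted p under 0.05 were the same, against 13.6% and 14.3%, and the median log2 change was -0.01. TAPBP, which loads peptide onto class I molecules, fell to 13.5, 13.9 and 14.6 FPKM in +Dox libraries, against 19.9, 19.5 and 18 FPKM in -Dox libraries (log2 change -0.43, limma adjusted p = 0.0208). Its call was lost without +Dox replicates 1 and 2 (0.0639 and 0.0683), without -Dox replicates 1 and 2 (0.0588 and 0.0983) and with the replicate number as a block (0.0745). TAP1, whose locus overlaps PSMB9, averaged 15.6 ± 1.9 FPKM in +Dox and 14.6 ± 1.16 FPKM in -Dox libraries (SD, n = 3 each). The interferon regulatory factor gene IRF1 was at 5.21 ± 0.0475 FPKM in +Dox and 5.39 ± 0.395 FPKM in -Dox libraries.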

How the data were processed

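The authors deposited a single table with a value for each gene in each of 6 libraries (3 per group). Its header names no unit, and the deposited values were read as FPKM, fragments divided by the authors by transcript length and library size, since they were not whole, had unequal column sums and had smallest steps inverse to transcript length. The labels' protocols name TRIzol for RNA extraction. The submitters' processing notes list Bowtie, BWA, STAR, Cufflinks, RSEM, kallisto and hg19 with no version or role. The loci are those of GENCODE 29 on GRCh38 (39321 of 39331 versioned identifiers after a shift of the starts), and coordinates are on GRCh38, counted from 1. Depth was inferred from the steps between small values of single-exon genes over 1000 bases long. In a 1 kb transcript 3 fragments amount to 0.168 to 0.210 FPKM, a limit that covers counting error only.

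Genes reaching 1 FPKM in 3 or more libraries (14475) entered a trended, robust limma fit (version 3.58.1, R 4.3.3) of log2(FPKM + 1) on group, with two-sided p-values adjusted by Benjamini-Hochberg over all of them. The fit was tested on data simulated with each gene's mean and spread. Changes were planted only in genes above a low level. The fit recovered 5.2% of 1.25-fold, 51.6% of 1.5-fold and 86.4% of 2-fold changes, and 2.72% of its calls on the simulated data were false. The simulated noise was independent between genes, without a shift shared by many genes of a library, such as that of +Dox replicate 3. The share of false calls in the deposited data is therefore not given by this value. The largest rise of a member was to 134.4% of its -Dox mean (PSMC4). A member that did not pass the test may therefore still have changed by an amount of this size. Catalytic ratios were compared by exact permutation tests. Members, subcomplexes and lists were chosen with earlier results of these data known. Values in every library are given by rule for CAPG, members past the threshold, the 2 members of smallest p in subcomplexes with fewer than 2 calls and the catalytic pairs, and list genes past the threshold, NFE2L1 and NFE2L2 are named by rule. Other per-gene values and the promoters shown were chosen after values were seen. Alternatives were another pseudocount and filter, 3 scalings, a replicate block, an untrended fit, leaving out each library and a length and GC correction.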

Additional observations from a re-analysis of the deposited data

How the results depend on the processing

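Of the members, 7 were called higher and 1 lower, against 3.69% and 4.77% of all tested genes. With genes from 0.1 FPKM tested these counts were 4 and 0 (1.44% and 2.12% of all tested genes). Without the trended, robust options they were 3 and 1 (2.45% and 4.18%). After the length and GC correction, chosen after the data were seen, they were 21 and 1, and calls over all genes also rose (9.81% and 7.78%). With the replicate number as a block, 0 were called higher and 0 lower (0.477% and 0.981%). The labels state no pairing, same-numbered libraries did not deviate together (correlations -0.0433, 0.00936 and -0.0231), and under this block calls over all genes numbered 69 higher and 142 lower. When a library was left out, between 0 and 5 members were called higher and between 0 and 1 lower. Over all tested genes these fits called 0.525% to 2.85% higher and 1.02% to 4.06% lower. The causes of these differences were not tested. With another pseudocount or any of the 3 scalings, 7 or 8 were called higher and 1 lower (3.16% to 4.48% and 4.65% to 6.15% of all tested genes). The median change of the members stayed between 0.154 (quantile normalization) and 0.309 (without +Dox replicate 1) under all alternatives run. The change of CAPG lay between -2.70 and -2.53, with adjusted p up to 0.00231. Among the members named by rule, and in values that passed no test, the sign reversed for PSMB10 with equal totals (-0.021), without +Dox replicate 3 (-0.142) and without -Dox replicates 2 and 3 (-0.0109 and -0.0202), and of PSME2 without +Dox replicate 3 (-0.00282). When a library was left out, PSMB10 lay between -0.142 and 0.157 and PSME2 between -0.00282 and 0.151. Of the other members, PSMA1, PSMG1 and PSMG2 changed sign without +Dox replicate 3, PSMA1 without -Dox replicate 1, PSME3 and PSMF1 without -Dox replicate 3, PSMA1, PSME3, PSMF1, PSMG1 and PSMG2 with equal totals, and PSMA1, PSMB4, PSME3 and PSMG2 after quantile normalization. When a library was left out, the log2 difference of the catalytic ratios lay between -1.86 and -0.671 (PSMB8 to PSMB5), -1.22 and -0.841 (PSMB9 to PSMB6) and -0.457 and -0.272 (PSMB10 to PSMB7). Depth limits PSMB8 and PSMB11, which lie near or below the level of 3 fragments.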
